A study of Mus musculus with 51 samples.

Results

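The interferon-stimulated genes described here are 41 listed genes of the 16099 in the expression table of a fetal mouse kidney time series. They were listed as genes known to be induced by interferons, and the list was taken up because several of them, Ifi27l2a, Gbp6, Oas2 and Lgals3bp among others, were among the largest changes between CT24 and CT0. Ifi27l2a also stood out in a 24 h fit over all libraries. The change from CT0 to CT24 is therefore given below as a description only, with no test. All 41 members reached the minimum for a test, a mean value of 10 over all libraries, which 14426 genes reached.

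Kidneys of C57BL/6 mouse fetuses were taken, and their poly-A RNA sequenced, at 13 time points, 4 h apart over 48 h, from embryonic day 18 (CT0) through embryonic day 19 (CT24) to embryonic day 20 (CT48), as the sample labels state these ages. The series' design text gives a later final age. There were 51 libraries, 4 at each time point except CT20, which had 3. No genotype, treatment or infection distinguishes the groups in the labels, which call every sample wild type (WT), and all fetuses were of the same strain. The labels do not name dams or litters, so p-values measure only the spread between these samples. Values are normalised whole numbers whose totals lay between 34226024 and 35711911 per library, and the depth of each library is unknown. CT0 to CT24 (27 libraries) and CT28 to CT48 (24 libraries) were deposited at nearly equal means gene by gene, so levels were compared within each of these stretches and not across them.

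Type I and type III interferons bind cell-surface receptors that act through the kinases Jak1 and Tyk2 and a complex of transcription factors. This complex binds a short DNA element, the interferon-stimulated response element, upstream of many target genes, which then encode sensors of viral RNA, enzymes that degrade or block viral RNA, proteins that trap virus particles, and parts of the pathway that presents peptides on MHC class I. Many cells keep a low level of the same targets without infection. The members were grouped by role into 9 sensors and regulators, 20 antiviral effectors, 3 genes of antigen processing and 9 other induced genes. Some are neighbours in the genome: Oas1a, Oas2 and Oas3 lie close together on chromosome 5, and Oasl2 farther away on the same chromosome, Ifit1, Ifit2 and Ifit3 on chromosome 19, and Mx1 and Mx2 on chromosome 16.

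The promoters of 30 members were found in a RefSeq table of the same genome build (GRCm38.p6), as windows from 250 bases before to 50 bases after the start of each gene. The letters GAAA, any 2 bases and GAAA again, a core form of the interferon-stimulated response element, were searched on both strands. This motif was present in 14 of the 30 windows (46.7%), against 3.99% of 27025 genes in the table. In the bases before the start alone the motif was present in 10 of the 30 (33.3%) against 3.46%. The letters TTCNNNGAA, a core form of the gamma-activated site, another element of interferon target genes, were present in 7 of the 30 (23.3%) against 9.55%, and before the start alone in 5 (16.7%) against 8.13%. Both motifs were in the windows of Oas1a, Eif2ak2, Ifitm3 and Bst2. The 4 stretches below are the 150 bases before the start of the members that hold the GAAA motif there and had the widest range of means between CT28 and CT48, and they show how it stands in these promoters. Capitals mark the motif on either strand, lower case the rest, and overlapping matches run together.
Isg15, chr4:156200819-156200968, minus strand: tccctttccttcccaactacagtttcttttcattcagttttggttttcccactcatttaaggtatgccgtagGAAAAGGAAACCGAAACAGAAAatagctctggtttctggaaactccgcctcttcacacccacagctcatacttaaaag
Oas3, chr5:120777660-120777809, minus strand: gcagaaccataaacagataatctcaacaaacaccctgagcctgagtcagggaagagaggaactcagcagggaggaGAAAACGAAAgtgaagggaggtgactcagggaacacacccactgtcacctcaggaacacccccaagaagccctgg
Ifit1, chr19:34640739-34640888, plus strand: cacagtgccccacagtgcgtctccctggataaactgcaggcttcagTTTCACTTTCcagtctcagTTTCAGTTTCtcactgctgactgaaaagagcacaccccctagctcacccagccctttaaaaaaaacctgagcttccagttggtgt
Gbp3, chr3:142559894-142560043, plus strand: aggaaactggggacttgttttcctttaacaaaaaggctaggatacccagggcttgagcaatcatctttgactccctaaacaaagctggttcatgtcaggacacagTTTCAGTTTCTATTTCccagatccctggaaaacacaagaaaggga
The Isg15 stretch held 3 overlapping matches, that of Oas3 held 1, and those of Ifit1 and Gbp3 held 2 each. In Ifit1 and Gbp3 every match lay on the reverse strand, as TTTC repeated. A match is a description of the letters and not a measured site.

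The CT0 and CT24 libraries chose the members, so the counts and ranges of CT0 to CT24 that include them are a description, and nothing is read from them. CT0 had the lowest mean of CT0 to CT24 for 37 of the 41, against 17.3% of all genes tested. Rsad2 was lowest at CT4 (7.02% of all genes) and Ifit2, Mx1 and Herc6 at CT8 (11%). CT24 had the highest mean for 27 members (18.8% of all genes), CT20 for 9 (20.7%), CT12 for 4 (15.5%) and CT16 for 1 (8.76%). The difference between the highest and the lowest mean had a median of 0.66 on the log2 scale over the members and 0.19 over all genes. Between CT8 and CT12 every CT12 library was above every CT8 library for 24 members (4.18% of all genes), and all 41 means were higher at CT12. Between the other neighbouring time points the libraries separated for 2 members from CT4 to CT8 (3.01%), 6 from CT16 to CT20 (13.2%) and 2 from CT20 to CT24 (6.08%), all upward, and for none from CT0 to CT4 or from CT12 to CT16.

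**Figure D1:**
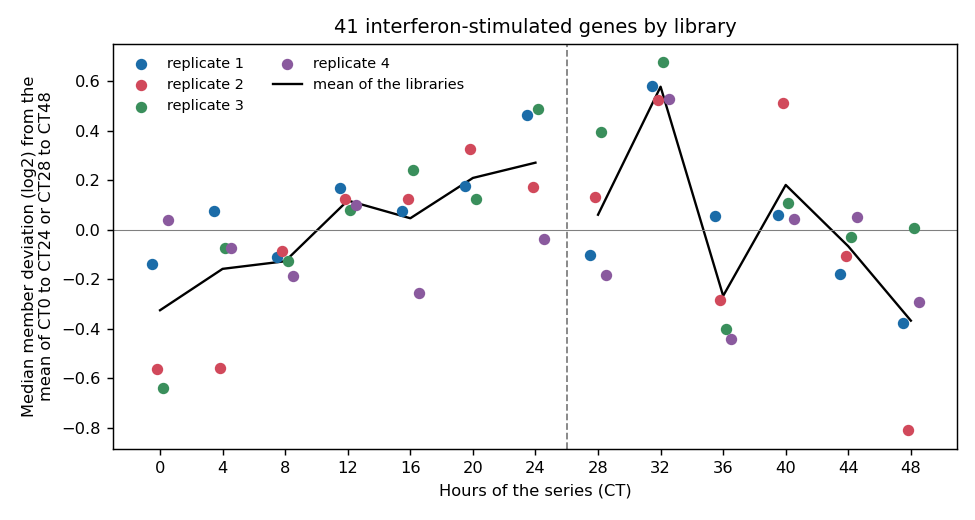
Median over the 41 members of each library's log2 deviation from the mean of its stretch (y axis), by hour of the series (x axis). Points are the 51 libraries, coloured by replicate number, lines join the means of the libraries, and the dashed line separates the stretches that were not compared in level. The CT32 libraries lay between 0.53 and 0.68 and the CT48 libraries between -0.81 and 0.01.

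Between CT0 and CT24 all 41 means were higher at CT24, by 0.14 (Herc6) to 2.60 (Ifi27l2a) on the log2 scale with a median of 0.58, and every CT24 library was above every CT0 library for 12 of them (14.8% of all genes). These 12 were Oas1a, Oas2, Oas3, Ifitm3, Gbp2, Gbp6, Psmb8, Psmb9, Tap1, Ifi27l2a, Lgals3bp and Ifi35.

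Ifi27l2a, which encodes a small protein of membranes inside the cell, had the widest range of means in CT0 to CT24. Its values lay from 124 to 290 at CT0 and were 639, 705, 401 and 336 at CT8, and 1240, 1000, 1087 and 976 at CT24. At CT28 they were 146, 218, 390 and 173 and at CT32 935, 1132, 1079 and 490. The libraries did not overlap from CT0 to CT8, from CT8 to CT24 or from CT28 to CT32, and the lowest CT32 value, of replicate 4, was still above the highest at CT28. From CT36 to CT48 its means were 380 ± 50.4, 646 ± 145, 433 ± 148 and 332 ± 128 (SD, n = 4 each).

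Lgals3bp, which encodes a secreted glycoprotein that binds galectins, differed from the other members in CT28 to CT48. It measured 1606, 1220, 1190 and 1998 at CT0, 2421, 2264, 2204 and 1945 at CT8 and 3834, 3690, 4328 and 2951 at CT24. At CT28 it was 1110, 1243, 1698 and 1138, at CT40 3001, 3673, 3957 and 2361, and at CT48 2701, 2148, 4099 and 2867. No CT40 or CT48 library was as low as any at CT28. The mean at CT32, 2213 ± 373, was not its peak.

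Within embryonic day 18, CT16 and CT20 were tested against CT4 and CT8, 12 h apart. The CT0 and CT24 libraries, which chose the members, were left out of the contrast but entered the estimate of spread. The same holds for the test of any difference among CT4 to CT20 below. All 41 differences were positive, from 0.06 (Samd9l) to 0.67 (Ifi27l2a), with a median of 0.28 against 0.00 over all genes, of which 52.3% were positive. Of these, 4 passed limma's test with Benjamini-Hochberg adjustment over all genes, all higher, against 3.76% of all genes called higher, 1.43% called lower and 5.19% called in either direction. Lgals3bp rose by 0.51 ± 0.12 (log2 difference ± SE, adjusted p = 0.0202). Psmb8, a catalytic subunit of the immunoproteasome, rose by 0.33 ± 0.10 (adjusted p = 0.0455), and Tap1, a subunit of the peptide transporter into the endoplasmic reticulum, by 0.28 ± 0.08 (adjusted p = 0.0339). Cmpk2, a mitochondrial nucleotide kinase, rose by 0.25 ± 0.07 (adjusted p = 0.0341). The values of Tap1 were 437, 341, 432 and 427 at CT4, 395, 448, 352 and 393 at CT8, 420, 420, 468 and 369 at CT16, and 517, 580 and 604 at CT20. Its CT20 libraries were above all the others and its CT16 libraries were not. None of the 9 sensors and regulators passed, and Dhx58 had the smallest p among them (0.32 ± 0.11, adjusted p = 0.0779).

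The 4 calls were sensitive to the choice of libraries. No member passed without CT20 replicate 2, and 7 passed without CT16 replicate 4. One at a time, leaving out CT4 replicate 2, CT8 replicate 3 or CT16 replicate 3 gave 1 call each. Leaving out CT4 replicate 3, CT8 replicate 2 or 4, CT16 replicate 1 or 2, or CT20 replicate 1 or 3 gave 2. No member passed without the time point CT4 or CT20, and 8 passed without CT16. With a correlation estimated within time points no member passed.

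Among CT4 to CT20, any difference between time points was called for 7 members (27% of all genes): Ifi27l2a, Oas3, Oas1a, Lgals3bp, Tap1, Psmb8 and Cmpk2. Ifi27l2a was picked in part from a fit that used these libraries, so its call is a description. The share of members, 7 of 41, was below that background. Oas3 and Oas1a, synthases of the short oligoadenylates that activate RNase L, differed between their lowest and highest means by 1.25 (adjusted p = 0.0282) and 0.86 (adjusted p = 0.0128) on the log2 scale. Oas3 was 29, 10, 21 and 27 at CT4, 39, 59, 47 and 55 at CT12 and 40, 32, 31 and 16 at CT16. Its CT12 values were above those of CT4 and overlapped those of CT16 by 1 library. The count was 2 without CT20 replicate 2, and 4 without CT4 replicate 2 or CT20 replicate 3.

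**Figure D2:**
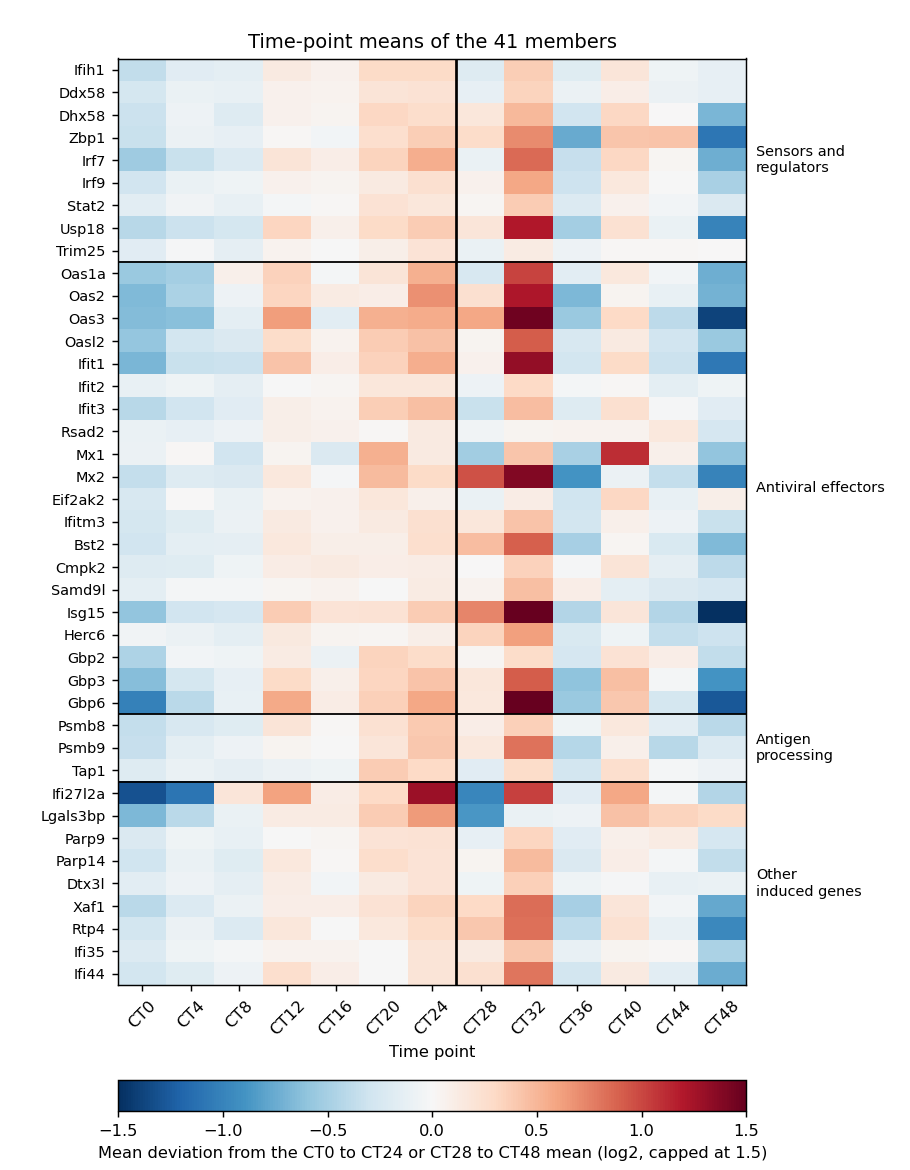
Mean log2 deviation of each member (rows, grouped by role) at each of the 13 time points (columns) from the mean of CT0 to CT24 or of CT28 to CT48, in colours capped at 1.5, with the black vertical line between these stretches. The CT0 column is low and the CT32 column high for most members, and Lgals3bp at CT28 and CT32 is among the exceptions.

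In CT28 to CT48 most members stood highest at CT32 and lowest at CT48. CT32 had the highest mean of CT28 to CT48 for 37 of the 41, against 18.6% of all genes, and CT48 the lowest for 30, against 21.8%. Lgals3bp, Eif2ak2 and Mx1 were highest at CT40 (11.9%) and Rsad2 at CT44 (13.2%). Ifih1, Trim25, Ifit3, Ifi27l2a and Lgals3bp were lowest at CT28 (20.9%), Eif2ak2, Psmb9 and Tap1 at CT36 (13%) and Ifit2, Herc6 and Dtx3l at CT44 (13.3%). A difference among these 6 time points passed for 38 members, with Trim25, Mx1 and Gbp2 not passing (adjusted p = 0.304, 0.3 and 0.0799). It passed for 64.7% of all genes, so most genes of the table also moved here. Ifi27l2a was picked in part from a fit that used these libraries too, so its call here is a description. The median range between the highest and lowest mean was 1.17 for the members and 0.43 for all genes. Of the 41 members 23 passed without CT32 and 19 without CT28 and CT32.

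Step by step, all 41 means were higher at CT32 than at CT28, with a median of 0.45, and the libraries did not overlap for 17 members (2.71% of all genes). At CT36 every library was below every CT32 library for 34 members (16.9% of all genes), and the median difference was -0.85. At CT40, 39 means were above those of CT36, with a median of 0.47, and 9 members had every library higher (9.41% of all genes) and 1, Samd9l, every library lower (9.78%). From CT40 to CT44 and from CT44 to CT48 5 members each had every library lower (3.73% and 3.31% of all genes). Between CT32 and CT48, 34 members had every library lower (23.3% of all genes). The members that overlapped were Trim25, Ifit3, Mx1, Eif2ak2, Gbp2, Tap1 and Lgals3bp. Between CT28 and CT48, 10 had every library lower (25.7%) and 1, Lgals3bp, every library higher (23%).

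Among the sensors and regulators, Usp18 had the widest range in CT28 to CT48, followed by Zbp1 and Irf7. Usp18, a protease that removes Isg15 from proteins and dampens the type I receptor, was 245, 289, 485 and 232 at CT28, 519, 581, 737 and 613 at CT32, with a median of 157 and a highest value of 355 at CT36. Its 4 libraries at CT48 held 89, 88, 249 and 150. Every CT32 library was above every library of those 3 time points, and the range of its means was 2.21 (limma, adjusted p = 2.75e-05). Irf7, which amplifies the interferon response, was 1187, 1114, 1490 and 910 at CT32 and 394, 205, 647 and 434 at CT48, with no overlap and a range of 1.57 (adjusted p = 0.00163). The 3 cytosolic RNA sensors of one family differed: Dhx58 had a range of 1.17 (adjusted p = 0.00127), Ifih1 of 0.56 (adjusted p = 6.87e-05) and Ddx58 of 0.46 (adjusted p = 0.00495). Zbp1, a sensor of left-handed nucleic acids, was low throughout, with 44, 10, 63 and 11 at CT48, and had a range of 1.79 (adjusted p = 0.00793). Of the 9 genes of this role 8 passed, against 64.7% of all genes.

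Among the antiviral effectors 18 of 20 passed (64.7% of all genes), and Isg15, a ubiquitin-like protein attached to other proteins, had the widest range of all members in CT28 to CT48, 3.34 on the log2 scale (limma, adjusted p = 7.2e-05). Isg15 was 650, 1115, 1440 and 594 at CT28 and 1501, 1255, 2034 and 2061 at CT32. It was 787, 319, 289 and 329 at CT36, and 129, 59, 368 and 257 at CT48. The CT28 and CT32 libraries overlapped, through CT28 replicate 3, while every CT36 and CT48 library was below all of CT32. In replicate 2 at CT48 it was 59, the lowest value of CT28 to CT48.

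Gbp6, a guanylate-binding GTPase that acts on membranes of pathogen vacuoles, was 174, 151, 393 and 93 at CT28, 400, 483, 501 and 425 at CT32, 121, 118, 99 and 91 at CT36 and 148, 226, 251 and 227 at CT40. The CT32 libraries stood above all others, CT28 replicate 3 came next, and the CT40 libraries were all above those of CT36. Its range was 2.78 (adjusted p = 9.2e-06). Bst2, also called tetherin, which holds budding virus particles at the cell surface, was 3398, 3449, 5010 and 4056 at CT32 and 1830, 1458, 1471 and 1271 at CT36, with a range of 1.56 (adjusted p = 2.86e-08). Oas3 was 77, 80, 73 and 78 at CT32 and 25, 0, 29 and 17 at CT48, where 1 library listed it at 0. Its range was 2.84 (adjusted p = 0.0228). That library lowered the CT48 mean, so the width of the range rests in part on it. The call was lost in 2 of 39 alternative settings.

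Some other effectors had small ranges or did not pass. Rsad2, also called viperin, an enzyme that makes a chain-terminating nucleotide, was 3119, 3344, 3304 and 3360 at CT32 and 3481, 3191, 3213 and 3410 at CT36, and its range was 0.40 (adjusted p = 0.0136). Mx1, a gene of the dynamin-like GTPase family, was 54, 8, 55 and 69 at CT32 and 26, 156, 35 and 84 at CT40. Whether this strain makes a working protein from it was not tested. The libraries of each of these time points were far apart, and Mx1 did not pass. Its relative Mx2, which the GENCODE M21 annotation types as a polymorphic pseudogene, was 215, 166, 313 and 234 at CT32. At CT36 Mx2 was 147, 36, 37 and 22, with no overlap and a range of 2.39 (adjusted p = 0.00466). Samd9l, an antiviral factor that restrains growth, had a range of 0.70 (adjusted p = 4.99e-07), and its mean was lower at each time point from CT32 to CT48.

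**Figure D3:**
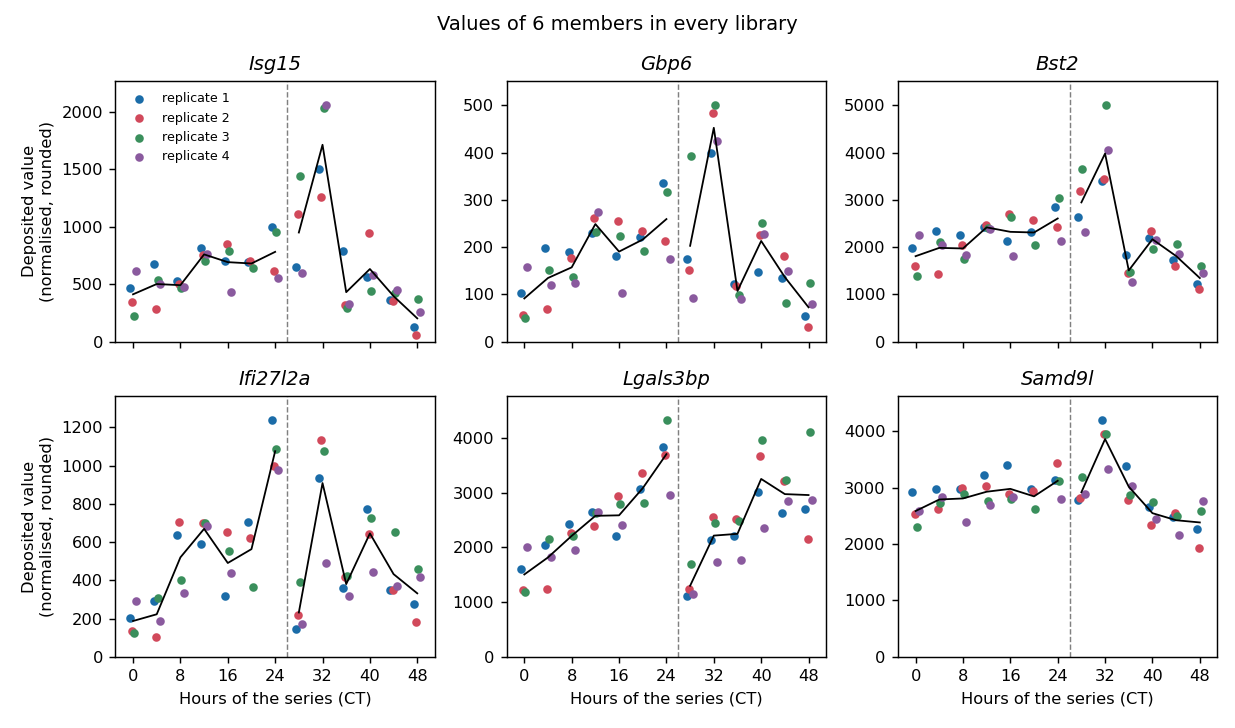
Deposited values (y axis, normalised and rounded, from 0) of 6 members in every library by hour of the series (x axis), coloured by replicate number. Black lines join the means of each time point and dashed lines separate CT24 from CT28. Isg15, Gbp6, Bst2 and Samd9l peak at CT32, and Lgals3bp is above its CT28 libraries in every library from CT32 on.

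All 3 genes of antigen processing passed among CT28 to CT48 (64.7% of all genes). Psmb9, a catalytic subunit of the immunoproteasome, ranged from 108 to 159 at CT32 and 61, 55, 58 and 54 at CT36, and its range was 1.24 (adjusted p = 0.000528). Its partner Psmb8 had a range of 0.76 (adjusted p = 0.00162) and Tap1 of 0.55 (adjusted p = 0.0193). Psmb9 and Tap1 lie side by side on chromosome 17, and the strand setting of the counting is unknown, so reads of the pair may be mixed. The other 9 members all passed, against the same share of all genes, with the call of Ifi27l2a a description only. Among them were Rtp4, a chaperone of receptors, with a range of 1.80 (adjusted p = 1.59e-05), and Xaf1, an inhibitor of the antiapoptotic protein XIAP, with 1.61 (adjusted p = 1.11e-05).

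The 12 h change on day 19, CT40 and CT44 against CT28 and CT32, was on balance negative, where that of day 18 was positive. Here 32 of the 41 differences were negative and 9 positive, with a median of -0.22 against -0.01 over all genes. The median rested on CT32: it was -0.0046 without that time point and -0.43 without CT28. Of the members 17 fell and 1 rose, against 31% of all genes called lower and 27.5% called higher. In either direction 18 of 41 were called against 58.5% of all genes, a smaller share of the members than of the table. Mx2 fell by 1.39 ± 0.41 (limma, adjusted p = 0.0067) and Isg15 fell by 1.32 ± 0.32 (adjusted p = 0.00165). Bst2 fell by 0.77 ± 0.10 (adjusted p = 1.18e-06) and Herc6, the mouse ligase that attaches Isg15, fell by 0.69 ± 0.10 (adjusted p = 1.04e-06). Gbp6 and Oas2 fell by 0.76 each (adjusted p = 0.0114 and 0.0151), Psmb9 fell by 0.66 (adjusted p = 0.00207), Usp18 fell by 0.63 (adjusted p = 0.0136) and Rtp4 fell by 0.56 (adjusted p = 0.00608). Lgals3bp alone rose, by 0.88 ± 0.14 (adjusted p = 1.92e-05). The antiviral effectors gave 10 of the 17 falls, the other induced genes 5, and the sensors and antigen processing 1 each. The count of falls was 29 without the time point CT28, 3 without CT32 and 4 without CT44, and it was 11 with a correlation estimated within time points.

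The difference between the 12 h changes of the days was itself tested over all 51 libraries. It was lower on day 19 for 30 members and higher for none, against 28.5% and 23.4% of all genes. With the estimated correlation 16 were lower, and without CT32 8 were lower and 1 higher. The median over the members was -0.49, and -0.23 without CT32. Single libraries left out gave 25 to 30. The difference was -1.82 ± 0.47 for Mx2 (limma, adjusted p = 0.00129), -1.79 ± 0.38 for Isg15 (adjusted p = 0.000153), -1.63 ± 0.61 for Oas3 (adjusted p = 0.0223) and -1.26 for both Ifit1 and Gbp6 (adjusted p = 0.0105 and 0.00432). Herc6 (-0.84 ± 0.12, adjusted p = 1.87e-07) and Bst2 (-1.004 ± 0.16, adjusted p = 2.47e-06) had small errors. Of the 11 members that did not pass, Mx1 and Lgals3bp had positive values, 0.35 ± 0.63 and 0.37 ± 0.19 (adjusted p = 0.667 and 0.0931), and the rest were negative.

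**Figure D4:**
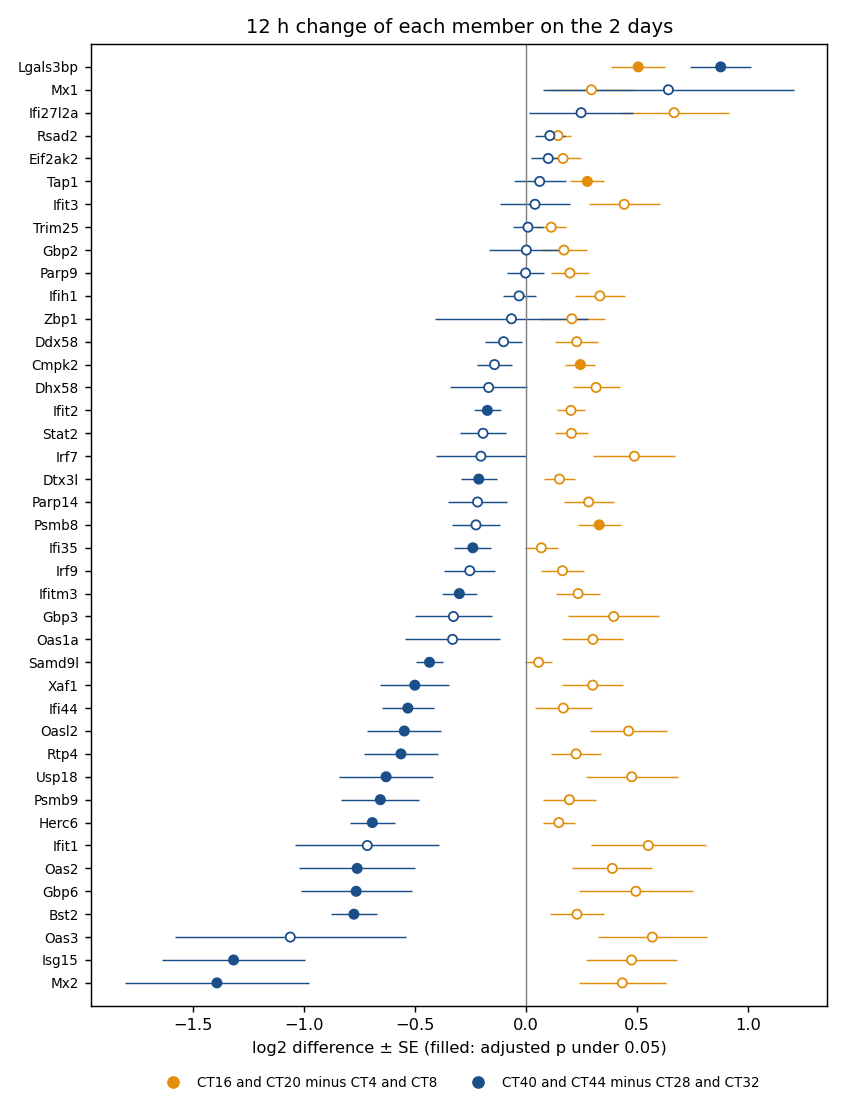
log2 difference with its SE (x axis) for each of the 41 members (rows, ordered by the day 19 value), for CT16 and CT20 minus CT4 and CT8 in orange and CT40 and CT44 minus CT28 and CT32 in blue. Filled points have an adjusted p under 0.05. All 41 orange points lie right of 0, and 32 of the 41 blue points left of it.

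Libraries of 1 time point differed together across the members. CT4 replicate 2 was the lowest library of CT4 for 40 of the 41 (25% of all genes). At CT0 replicate 3 was lowest for 36 (21.4%) and replicate 4 highest for 37 (25.4%). CT16 replicate 4 was lowest for 37 (22.9%), CT24 replicate 4 for 36 (23.8%) and CT48 replicate 2 for 36 (26.6%). Replicate 3 of CT28 was the highest for 35 (23%), replicate 1 of CT36 and replicate 2 of CT40 for 32 each (27.9% and 25.2%). The 4 CT8 libraries lay within 0.10 of each other in their median member deviation, from -0.19 to -0.09, and those of CT12 from 0.08 to 0.17. Those of CT0 lay from -0.64 to 0.04, with the median of all genes near 0 in each. Members of 1 library are therefore not independent of each other, and 41 genes do not count as 41 replicates.

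**Figure D5:**
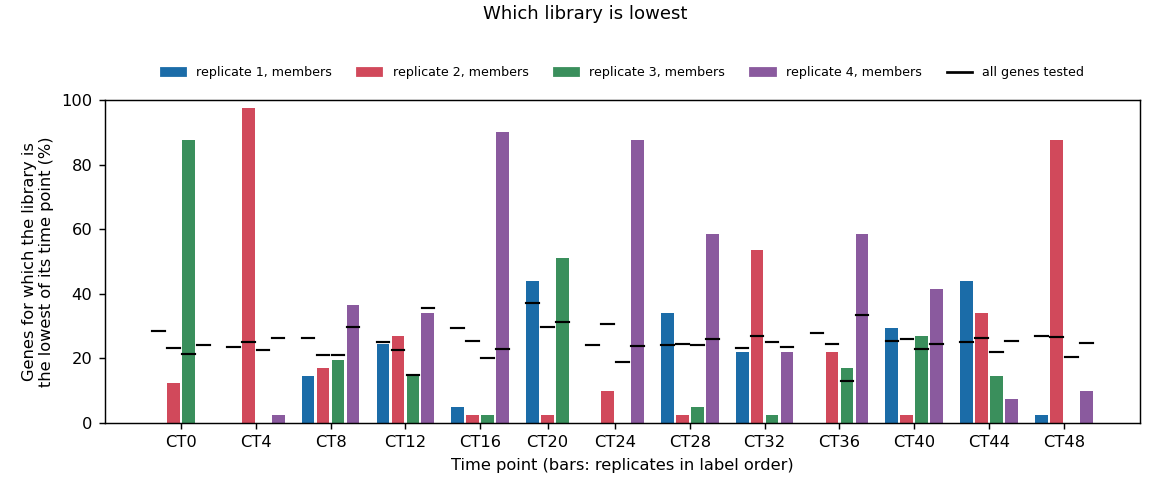
Share of the 41 members (bars, y axis in percent from 0) for which each of the 51 libraries was the lowest of its time point (x axis, replicates in label order), with black marks for the same share of all genes tested. The bar of CT4 replicate 2 is the tallest, and the black marks lie between 12.9% and 37.2%.

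Among the genes around the members, the interferon genes themselves were hardly in the table. Of 21 listed ligands 2, Ifnk and Ifnz, were present, both with means under 10, and the others were not analysed here. The receptors and signalling parts did not move as the members did on day 19, where 11 of 19 rose and 3 fell (27.5% and 31% of all genes). Ifnlr1, the specific chain of the type III receptor, rose by 0.81 ± 0.12 (limma, adjusted p = 1.64e-06). On day 18, 1 of the 19 rose and none fell (3.76% and 1.43% of all genes).

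A further list of 66 interferon-induced genes outside the members had 56 that were tested, and on day 19 23 of them fell and 5 rose, against 31% and 27.5% of all genes. Gbp8, a relative of Gbp6, fell by 1.66 ± 0.41 (limma, adjusted p = 0.0011). On day 18, 2 of the 56 rose and none fell, near the shares of all genes (3.76% and 1.43%). The difference between the days was lower on day 19 for 31 and higher for 1, against 28.5% and 23.4% of all genes. Other sensing genes gave 3 rises and 8 falls of 21 on day 19 (27.5% and 31% of all genes), and 1 rise on day 18 (3.76% of all genes). Mb21d1, the DNA sensor cGAS, fell by 0.60 ± 0.12 on day 19 (adjusted p = 7.39e-05). The MHC class I and antigen processing list had 5 rises and 5 falls of 17 on day 19, near the shares of all genes (27.5% and 31%): H2-D1, a classical class I heavy chain, rose by 0.44 ± 0.07 (adjusted p = 2.05e-06), and Psme2, an activator of the proteasome, fell by 0.40 ± 0.07 (adjusted p = 6.63e-06). On day 18, 2 of these 17 rose and none fell (3.76% and 1.43% of all genes).

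Some cell type markers moved with the members and some did not. In whole kidney, more cells of a type and more RNA per cell cannot be told apart. The summed values of the 11 macrophage markers in the table (of 12 listed, Adgre1 not analysed) were 5336 to 6220 at CT0 and 6897 to 7686 at CT24. Of the 11, 8 were higher in every CT24 than CT0 library (14.8% of all genes). At CT32 the sum was 5579 to 6436 and at CT48 6793 to 8291, the opposite order to the members. By gene the macrophage markers were mixed. In the 12 h comparison on day 19, 5 of the 11 were higher and 2 lower (27.5% and 31% of all genes). From CT32 to CT48 their median log2 difference was 0.17. The sum of 8 neutrophil and monocyte markers (of 10 listed, Ly6g and Elane not analysed) was 4437 to 5287 at CT32, 2324 to 3525 at CT36 and 1976 to 2675 at CT48, in the order of the members. Most of that sum was Plac8, which had a mean of 3935 ± 438 at CT32 and 2005 ± 329 at CT36, while S100a8 and S100a9, which mark neutrophils, had 193 and 342 at CT32 and 210 and 328 at CT36. The 7 nephron progenitor markers, of cells that form new nephrons, were also on balance lower late on day 19. In that 12 h comparison 4 were lower and 1 higher (31% and 27.5% of all genes), with a median of -0.29. Their sum was 9144 to 10589 at CT32, 8674 to 8997 at CT36 and 8194 to 9494 at CT48, but was higher still, 10121 to 11177, at CT28. From CT28 to CT32 their median log2 difference was -0.12, where that of the members was 0.45. The 9 ureteric and collecting duct markers went the other way from the members on day 19. Of these 9, 7 were higher and 1 lower (27.5% and 31% of all genes), with a median of 0.22. The part of these cells in the result was not tested. Lymphocyte markers summed to 50 to 153 in the libraries, and no listed gene was at 0 in every library. The 12 proximal tubule markers, which check the tissue, summed to between 156655 and 260279, with 11 of 12 higher in every CT24 than CT0 library (14.8% of all genes). Of these 12, 3 were lower and 4 higher on day 19, near the shares of all genes (31% and 27.5%). In the difference between the days 6 were lower and 2 higher (28.5% and 23.4% of all genes).

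A rhythm over the whole series was rarely called for the members by the submitters. Of the 41 members, 2 had in the authors' deposited table a combined q-value under 0.05, against 41.3% of 16099 genes. By its JTK test alone the authors' deposited table called 2 members (44.6% of all genes), and by its Lomb-Scargle test 1 (14.2%). In the authors' deposited table these were Lgals3bp (q = 1.07e-05) and Samd9l (q = 0.00535). The authors' deposited table gave Isg15 q = 0.545.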

How the data were processed

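Poly-A RNA of 51 fetal kidney libraries was sequenced after TruSeq library preparation, per the labels' protocols. STAR 2.5.2b, bcl2fastq and featureCounts 1.5.0-p3 are listed with the build mm10, per the submitters' processing notes. Not given in the sources used here: annotation, strand setting and normalisation. Though named for counts, the deposited expression table holds a score: values that were normalised before rounding, as read from the values (nearly equal totals, and a spread of low genes below counting noise). Depth is therefore unknown, no count test was run, and the spread between libraries sets the precision. The planned tests were fitted with limma 3.58.1 (trend, robust moderation) in R 4.3.3 on log2(value + 1), over genes whose mean reached 10, and p-values were adjusted by the Benjamini-Hochberg method over 14426 genes. The added 1 understates changes of low genes on this scale, but a single very low library can widen them, as for Oas3 at CT48. CT0 to CT24 and CT28 to CT48 were fitted apart, except for the difference between the days.

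The second table deposited by the authors holds p-values, q-values and period and phase scores of a rhythm test, per the file headers. Steps between time points are descriptions without a test. Named genes are the members with the largest differences among those passing each test (up to 10), up to 4 genes of each list, and members given as examples of a role, the last chosen after their values were seen. Members, lists and tests were chosen with earlier results of these data known. Coordinates and promoters are those of GENCODE M21 and RefSeq on GRCm38, the build also called mm10. Close copies (Oas1a, Gbp6, Ifit3 and their relatives) and neighbours such as Parp9 and Dtx3l are uncertain as single genes. Models were tested on simulated data with independent noise for each gene, so the check does not cover shifts shared by the members of a library. In these data a log2 change of 0.5 was recovered for 86% of changed genes on day 18 and 78% on day 19. Among CT28 to CT48 it was recovered for 56%. Alternatives were another pseudocount, filter, normalisation, moderation, replicate block, correlation within time points, and libraries or time points left out.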

Additional observations from a re-analysis of the deposited data

Results flagged for a closer look

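Of 72 groups of libraries examined, 4 held a library far from the others by Dixon's test, and chance flags about 1 in 20 groups. Lgals3bp at CT12 was 2383 in replicate 2, below the other 3 libraries. Isg15 at CT36 was 787 in replicate 1, above the others. Ifi27l2a at CT44 was 654 in replicate 3, above the others. The median member deviation at CT40 was 0.51 in replicate 2, above the others.

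The 12 h change differed between day 19 and day 18, by the test of the difference, for 30 of the 41 members, all lower on day 19, against 51.9% of all genes in either direction and 28.5% lower. The count was 16 with an estimated correlation within time points and 8 lower without CT32. The log2 differences were -1.82 for Mx2, -1.79 for Isg15, -1.63 for Oas3, -1.26 for Ifit1, -1.26 for Gbp6, -1.15 for Oas2, -1.11 for Usp18, -1.01 for Oasl2, -1.004 for Bst2 and -0.85 for Psmb9.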

How the results depend on the processing

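None of the up to 10 members with the largest calls in each 12 h comparison reversed its direction. Ranges among time points have no direction, and counts were compared only in size. The median over all genes was small and changed sign in some settings, on day 19 from -0.014 to 0.0049 with quantile normalisation. For day 18 the count of 4 members higher became 0 with an estimated correlation within time points, 0 with time-point means as the unit, 2 without trend and robust moderation, 0 with all 51 libraries in the fit, 0 without CT4, 8 without CT16 and 0 without CT20, and 0 to 7 with single libraries left out. The count of all genes, 749, became 7, 0, 11 (all libraries), 259 (without CT4), 2139 (without CT16) and 153 (without CT20), and 317 to 738 with single libraries left out. For day 19 the members higher, 1, became 0 with time-point means, 3 without CT32 and 2 without CT44, and 1 to 2 with single libraries left out (2 without CT44 replicate 3). The members lower, 17, became 11 with the estimated correlation, 8 with time-point means, 29 without CT28, 3 without CT32 and 4 without CT44, and 15 to 20 with single libraries left out. For the difference between the days, the members lower, 30, became 16, 10 with time-point means and 8 without CT32, the members higher, 0, became 1 without CT32 and 0 to 1 with single libraries left out (CT4 replicate 2, CT28 replicate 3 or CT40 replicate 4), and all genes, 7494, became 4127 with time-point means. Among CT4 to CT20 the 7 members became 1 with all libraries, 1 without CT4, 4 without CT12 and 2 without CT20, and 2 to 9 with single libraries left out, and all genes, 3895, became 345 and 1550 (without CT20), and 2582 to 4386. Among CT28 to CT48 the 38 members became 23 without CT32 and 19 without CT28 and CT32, where all genes, 9332, became 3177. The causes were not tested.

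With the replicate block the members called were 4 on day 18, 1 higher and 17 lower on day 19, 28 for the difference, 7 among CT4 to CT20 and 38 among CT28 to CT48, and no call count moved by over 1.5 times. Correlations of same-numbered libraries ranged from -0.30 to 0.38. They were not set against those of differently numbered libraries, so they cannot show whether the numbers pair samples. The pairing was not used in the main tests. The estimated correlation and time-point means could not be fitted for the tests of any difference. Time points left out were chosen after seeing the data. The unknown depth limits what can be said of low members such as Mx1, Oas3 and Zbp1.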
